A study of Mus musculus with 6 samples.

Results

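The CpGs described are those inside autosomal protein-coding genes but away from promoters, in DNA of mouse CD8+ T cells. A CpG was taken when it lay inside such a gene (GENCODE M21, GRCm38), over 2 kb from any annotated transcription start site (TSS), in no CpG island, and under at least 10 and fewer than 1000 reads in all 6 libraries. Of 725061 autosomal CpGs within these read limits, 380085 lay in a protein-coding gene, 184356 of those were over 2 kb from a TSS, and 177532 of those were in no island, which is 24.5% of the 725061. Among the 177532 gene body CpGs, 22485 (12.7%) lay in coding exons, 145510 (82.0%) in introns, and 9537 (5.37%) in other exon sequence, that is, untranslated or noncoding exons. They fell in 11419 of 20807 autosomal protein-coding genes, with a median of 7 CpGs per gene that had any. The 241258 CpGs outside all genes that met the same limits on reads, TSS distance, and islands are called intergenic and serve as the comparison class.

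Reduced representation bisulfite sequencing (RRBS) was used to measure DNA methylation in CD8+ T cells enriched from lymph nodes of 13-week-old C57BL/6N mice. WT mice carried no transgene, hSTAT5B mice (hSTAT5B +/T) carried a transgene for human STAT5B, and hSTAT5BN642H mice (hSTAT5B N642H +/T) carried the same transgene with the N642H mutation. Both transgenes were driven in blood cells by a vector built from regulatory sequence of mouse Vav1, each from 1 selected mouse line, and the hSTAT5BN642H mice were diseased. Each genotype had 2 libraries, each from 1 mouse, so that line, disease, and genotype cannot be told apart. STAT5B is a transcription factor activated by cytokine receptors through JAK kinases, and STAT5BN642H is an activating mutant found in T cell cancers.

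In vertebrate genomes most CpGs are methylated, and the exceptions are mainly promoters, CpG islands, and active enhancers. Across the bodies of transcribed genes, SETD2 places methylation on lysine 36 of histone H3, which recruits the DNA methyltransferase DNMT3B, whereas DNMT1 copies existing methylation after replication and TET enzymes oxidize it. CpGs far from other CpGs and flanked by A or T are known to be the first to lose methylation in cells that have divided often. Bodies of active genes are therefore known as methylated territory, with unmethylated islands of regulatory sequence inside introns. RRBS reads only the ends of MspI fragments, cut at CCGG, so that 59.4% of the gene body CpGs were themselves in an MspI site.

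Sequences of the gene bodies on which the results below turn are shown as 100 bases of the plus strand of GRCm38, with the measured gene body CpGs in capitals. Each is centered on a CpG. For Otof (chr5:30380699-30380798, intron), Kbtbd11 (chr8:15014225-15014324, intron), Txndc5 (chr13:38503000-38503099, intron), and Bcl11b (chr12:107975182-107975281, intron), it is the CpG with the largest difference between hSTAT5BN642H and WT in that gene. For Vav1 (chr17:57290591-57290690, intron), it is the CpG whose reads set the result of the gene, and for Unc45a (chr7:80331712-80331811, coding exon), the CpG with the most reads. All but the Unc45a window were chosen after their values were seen.
Otof: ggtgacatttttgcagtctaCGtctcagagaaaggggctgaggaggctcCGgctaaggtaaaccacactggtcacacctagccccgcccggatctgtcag
Kbtbd11: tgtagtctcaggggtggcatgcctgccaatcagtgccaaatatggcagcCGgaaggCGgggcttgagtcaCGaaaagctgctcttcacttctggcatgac
Txndc5: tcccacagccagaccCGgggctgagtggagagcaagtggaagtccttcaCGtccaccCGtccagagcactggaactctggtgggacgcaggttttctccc
Bcl11b: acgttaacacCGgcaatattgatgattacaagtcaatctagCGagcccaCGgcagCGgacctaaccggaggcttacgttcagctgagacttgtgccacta
Vav1: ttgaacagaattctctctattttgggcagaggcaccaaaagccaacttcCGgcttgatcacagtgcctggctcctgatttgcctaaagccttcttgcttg
Unc45a: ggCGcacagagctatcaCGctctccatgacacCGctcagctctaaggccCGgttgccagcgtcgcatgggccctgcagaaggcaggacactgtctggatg

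Gene body CpGs were highly methylated in every library. The mean level was 88.35% and 88.82% in the WT libraries, 88.76% and 88.69% in hSTAT5B, and 87.72% and 87.97% in hSTAT5BN642H. Both hSTAT5BN642H libraries were thus below the other 4, whereas the hSTAT5B libraries lay between the WT libraries. The mean of hSTAT5BN642H was lower than that of WT (difference −0.743 points) and than that of the other 4 libraries (−0.812 points). The smallest p that an exact permutation test can give is 0.333 for 2 libraries against 2 and 0.0667 for 2 against 4, and these were the values found (2-sided; Benjamini-Hochberg over 28 comparisons, 0.406 and 0.311). hSTAT5B differed from WT by 0.138 points, which is within the SD of 0.333 points between the WT libraries, and without WT replicate 1 the difference was −0.0974 points. The libraries held 43291086 to 67007186 reads on CpGs, with a median of 5 to 11 reads per CpG. The median of a gene body CpG within the limits was 27 reads in the shallowest library and 47 in the deepest, and the lowest level belonged to the deepest library, hSTAT5BN642H replicate 1.

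The difference was spread over the genome. On all 19 autosomes hSTAT5BN642H was below WT, with differences from −0.967 to −0.517 points, and both of its libraries were below the other 4. hSTAT5B was below WT on 2 of the 19 autosomes, with differences from −0.0248 to 0.233 points. The chromosomes themselves differed more than the genotypes, with mean levels from 86.5% to 89.9%.

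The CpGs were also counted by level. CpGs at 95% or above made up 58.3% and 60.7% of the gene body CpGs in WT, 60.2% and 60.7% in hSTAT5B, and 53.9% and 55.3% in hSTAT5BN642H. CpGs between 80% and 95% made up 25.7% and 24.5% in WT, 24.7% and 24.0% in hSTAT5B, and 29.7% and 28.2% in hSTAT5BN642H. The share of CpGs below 20% hardly varied, from 3.42% to 3.72% over the 6 libraries. When CpGs were binned by their level in hSTAT5B, which takes no part in the comparison of the other genotypes, the 107066 CpGs at 95% or above had a mean of 96.9% and 97.3% in WT and of 96.4% and 96.5% in hSTAT5BN642H. The 44450 CpGs at 80% to 95% differed more, by −1.39 against −0.653 points, with 91.3% and 92.0% in WT and 90.1% and 90.4% in hSTAT5BN642H. The 19636 CpGs at 20% to 80% were at 60.2% and 61.0% in WT and at 59.9% and 60.7% in hSTAT5BN642H. The 6380 CpGs below 20% had a mean of 11.2% and 10.1% in WT and of 11.3% and 11.7% in hSTAT5BN642H.

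Coding exons were more methylated than introns. The mean of coding exon CpGs was 90.74% and 91.23% in WT, 91.10% and 91.00% in hSTAT5B, and 90.31% and 90.55% in hSTAT5BN642H. The mean of intron CpGs was 88.13% and 88.58% in WT, 88.52% and 88.47% in hSTAT5B, and 87.43% and 87.69% in hSTAT5BN642H. The remaining exon CpGs were lower, at 86.21% and 86.97% in WT, 86.90% and 86.69% in hSTAT5B, and 85.98% and 86.15% in hSTAT5BN642H. In each of these classes both hSTAT5BN642H libraries lay below the other 4, with a mean difference of −0.584 points in coding exons, −0.860 in introns, and −0.629 in other exons.

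Within a library, coding exons exceeded introns by 2.69 ± 0.148 points (SD, n = 6; exact sign-flip permutation test, 2-sided, p = 0.0312, the smallest that 6 libraries can give). The gap was 2.61 and 2.65 points in WT, 2.58 and 2.54 in hSTAT5B, and 2.88 and 2.86 in hSTAT5BN642H, so that the hSTAT5BN642H libraries stood above the other 4 (exact permutation test, 2-sided, p = 0.0667). The gap itself held at matched spacing of CpGs, at 2.46 points, and was 4.30 points with repeats left out. The larger gap in hSTAT5BN642H did not hold: at matched spacing its difference from WT was −0.154 points in place of 0.240. Coding exon and intron CpGs differed in make-up, with 4.2% against 18.4% having no other CpG within 50 bases, and 1.3% against 33.3% lying in repeats.

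**Figure D1:**
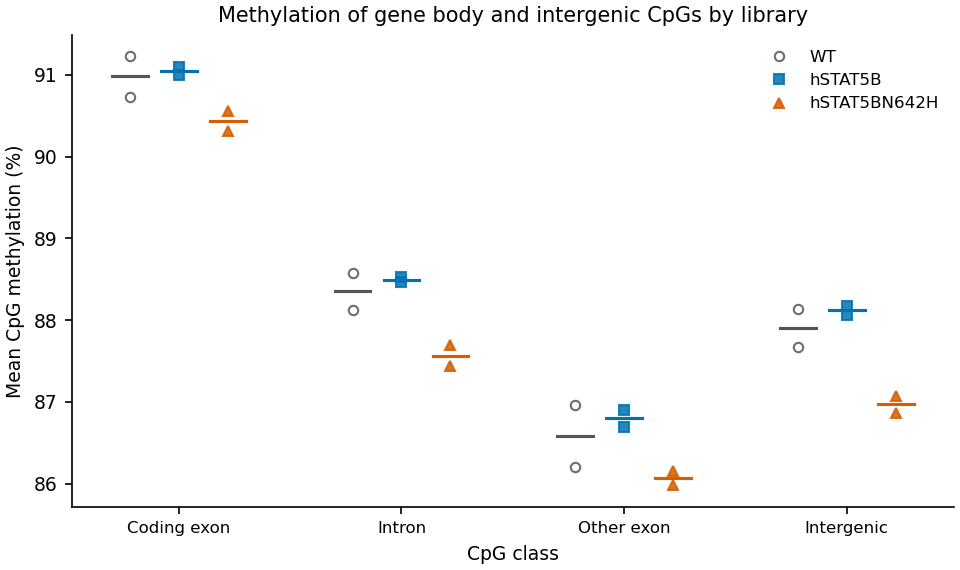
Mean methylation (%) of CpGs in coding exons, introns, other exons, and intergenic sequence, with 1 point per library and a bar at the genotype mean (n = 2). Coding exons are the highest class in each library, and the hSTAT5BN642H points (triangles) lie below those of WT (circles) and hSTAT5B (squares) in all 4 classes. The axis does not start at 0.

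Against intergenic CpGs, gene bodies were higher by 0.724 ± 0.124 points (SD, n = 6; exact sign-flip permutation test, 2-sided, p = 0.0312). The gap was 0.684 and 0.691 points in WT, 0.589 and 0.628 in hSTAT5B, and 0.860 and 0.892 in hSTAT5BN642H. Intergenic CpGs thus differed between the genotypes somewhat more than gene bodies, by −0.932 points between hSTAT5BN642H and WT against −0.743 points (2 against 4 libraries, exact permutation test of the gap, 2-sided, p = 0.0667). This difference of 0.189 points in the gap was 0.118 points with repeats left out and 0.0869 points with reads pooled over CpGs, where the same exact permutation test of 2 against 4 gave p = 0.200 and 0.133. Repeats held 57.1% of intergenic and 28.1% of gene body CpGs, and with repeats left out the gap was 4.81 points. Gene body CpGs in repeats were at 91.4% and 91.6% in WT and 90.4% and 90.6% in hSTAT5BN642H, above those outside repeats, at 87.2% and 87.7% in WT and 86.7% and 86.9% in hSTAT5BN642H.

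The mean over gene body CpGs increased with the length of the gene. In genes under 10 kb (4239 CpGs) the mean over the 6 libraries was 77.1%, in genes of 10 to 30 kb (20527 CpGs) 87.1%, in genes of 30 to 100 kb (48551 CpGs) 88.2%, in genes of 100 to 300 kb (53302 CpGs) 88.9%, and in genes of 300 kb or more (45885 CpGs) 89.7%. Genes of at least 100 kb exceeded genes under 30 kb by 3.93 ± 0.140 points (SD, n = 6; exact sign-flip permutation test, 2-sided, p = 0.0312). Short genes leave little room beyond 2 kb from a TSS, and 11.7% of their CpGs under 10 kb, against 18.4% in the longest genes, had no other CpG within 50 bases. At matched spacing and flanking bases the gap was 3.79 points. Repeats, which were not matched, held 9.5% of the CpGs in genes under 10 kb and 40.8% in genes of 300 kb or more. The median gene body with at least 10 CpGs hardly varied with length, at 90.8% under 10 kb and 91.3% at 300 kb or more. Of 72 such gene bodies under 10 kb, 16 were under 50%, against 0 of 531 of 300 kb or more.

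The difference between hSTAT5BN642H and WT varied along the same axis. It was −0.164 points in genes under 10 kb, where the hSTAT5BN642H libraries, at 76.8% and 77.1%, lay within the WT libraries, at 76.7% and 77.6%. It was −0.733 points at 10 to 30 kb, −0.584 at 30 to 100 kb, −0.690 at 100 to 300 kb, and −1.05 in genes of 300 kb or more, and in these 4 bins both hSTAT5BN642H libraries were below the other 4. In the longest genes the level was 89.65% and 90.30% in WT, 90.21% and 90.11% in hSTAT5B, and 88.75% and 89.09% in hSTAT5BN642H. The gap between genes of at least 100 kb and under 30 kb was 4.03 and 3.94 points in WT, 4.02 and 4.09 in hSTAT5B, and 3.76 and 3.77 in hSTAT5BN642H. It was smaller in hSTAT5BN642H than in the other 4, with a difference of −0.256 points (exact permutation test, 2-sided, p = 0.0667, the smallest possible), but with genes weighted equally the difference from WT was −0.0538 in place of −0.223 points and with introns alone −0.0874.

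Distance to the nearest TSS gave a similar order. From 2 to 5 kb of a TSS the mean was 85.6% over the 6 libraries, and beyond 100 kb it was 91.0%. Repeats held 18.5% of the CpGs at 2 to 5 kb and 47.1% beyond 100 kb. CpGs with no other CpG within 50 bases made up 15.5% and 20.3%. Neither feature was matched. The difference between hSTAT5BN642H and WT was −0.580 points at 2 to 5 kb, −0.609 at 5 to 10 kb, −0.766 at 10 to 30 kb, −0.947 at 30 to 100 kb, and −1.23 beyond 100 kb (7162 CpGs). Beyond 100 kb the libraries were at 91.06% and 91.58% in WT, 91.58% and 91.39% in hSTAT5B, and 89.92% and 90.27% in hSTAT5BN642H. Position within the gene mattered less for this difference. Of 5 equal segments of the gene, the one at the 5′ end was at 86.6% and the one at the 3′ end at 89.3% over the 6 libraries, with differences of −0.872 and −0.672 points.

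**Figure D2:**
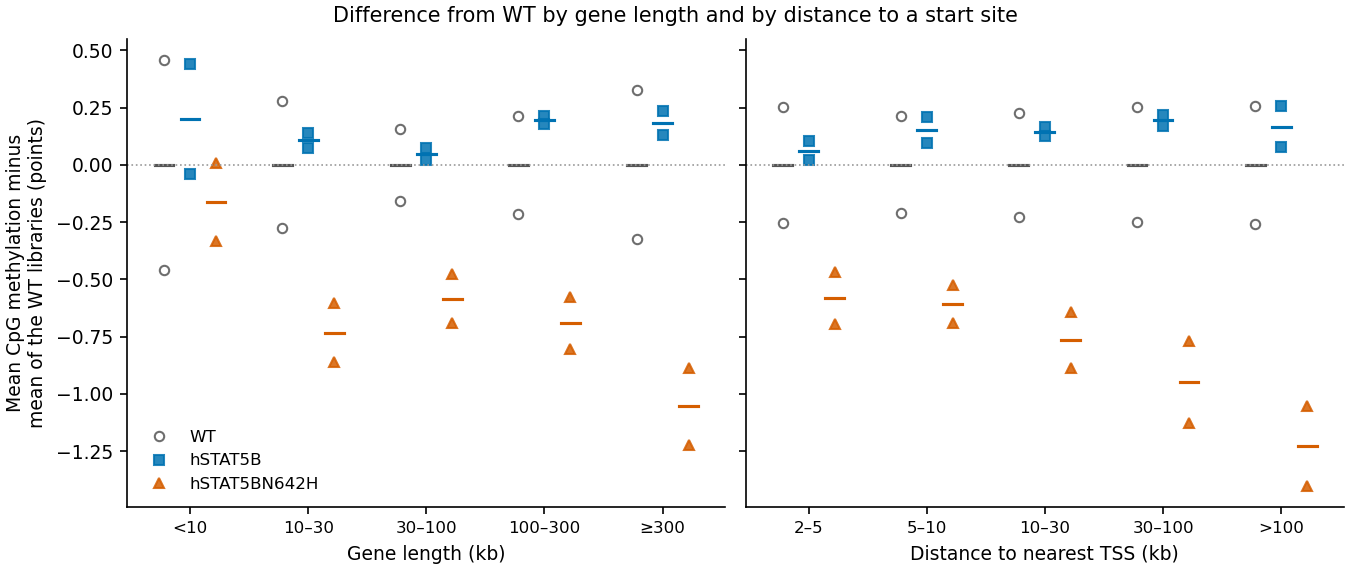
Mean methylation of gene body CpGs in each library minus the mean of the WT libraries (percentage points), by gene length (left, kb) and by distance to the nearest TSS (right, kb); points are libraries and bars genotype means (n = 2). The hSTAT5BN642H triangles move from near the WT circles in genes under 10 kb to about 1 point below in genes of 300 kb or more, and to −1.23 points beyond 100 kb from a TSS.

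The difference between hSTAT5BN642H and WT also varied with the immediate sequence around a CpG. For CpGs with no other CpG within 50 bases (29186) it was −1.17 points. It was −0.999 points with 1 other CpG (43286), −0.652 with 2 or 3 (59680), −0.501 with 4 to 6 (35596), and 0.216 points with 7 or more (9784), of which 66.5% lay in repeats. CpGs flanked by A or T on both sides (11809) differed by −1.52 points, those with mixed flanks by −0.777, and those flanked by G or C on both sides (125914) by −0.660.

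CpGs with no other CpG within 50 bases could not be used for both features together, since 0.0445% of them had A or T on both sides. Of these CpGs 99.96% lay in an MspI site, against 26.3% of those with 7 or more others, so that spacing and MspI sites varied together. Described instead were 2586 CpGs with 1 other CpG within 50 bases and A or T on both sides. Their level was 84.2% and 85.5% in WT, 84.7% and 85.1% in hSTAT5B, and 81.7% and 82.6% in hSTAT5BN642H. The difference between hSTAT5BN642H and WT was −2.68 points, against −0.781 points at the 33846 CpGs with 1 other CpG and G or C on both sides. The gap between the flank classes in a library was −5.58 and −4.86 points in WT, −5.37 and −4.94 in hSTAT5B, and −7.46 and −6.77 in hSTAT5BN642H, wider in both hSTAT5BN642H libraries than in the other 4. The same context was at 90.3% and 90.5% in WT coding exons and at 88.2% in both hSTAT5BN642H libraries (153 CpGs), and in introns at 83.6% and 84.98% in WT and at 81.0% and 81.9% in hSTAT5BN642H (2292 CpGs).

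**Figure D3:**
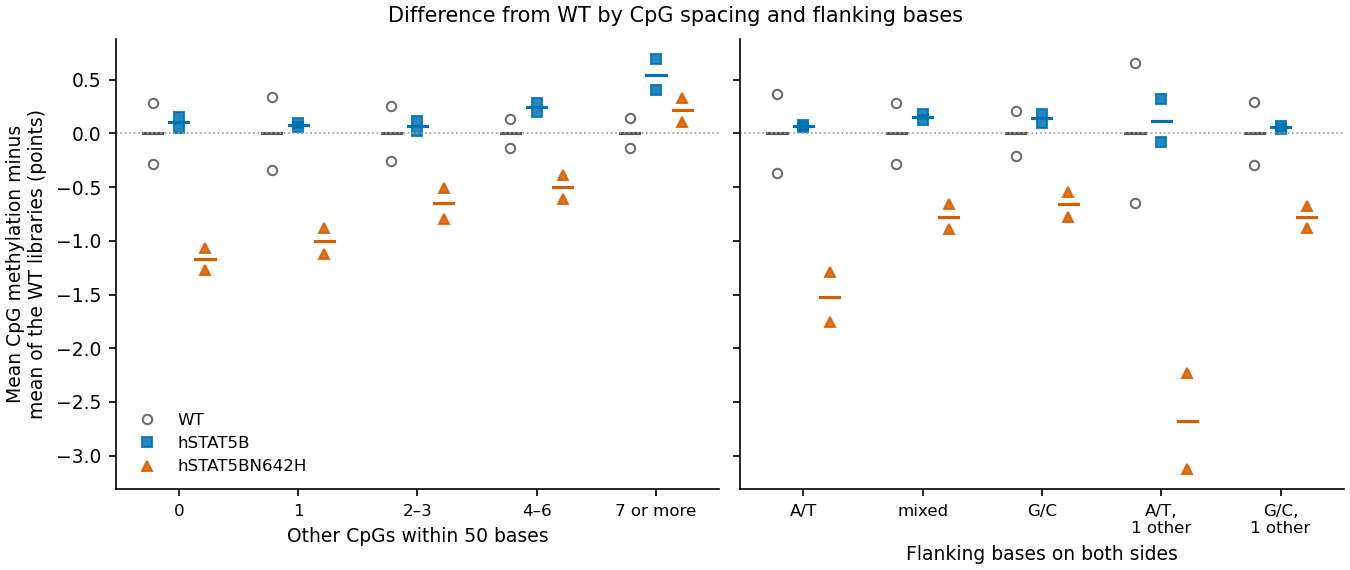
Mean methylation of gene body CpGs in each library minus the mean of the WT libraries (percentage points), by the number of other CpGs within 50 bases (left) and by the bases on either side of the CpG (right); points are libraries and bars genotype means (n = 2). The hSTAT5BN642H triangles are lowest, at a mean of −2.68 points, for CpGs with 1 other CpG and A or T on both sides, and above the WT mean for CpGs with 7 or more neighbors.

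Single gene bodies were then compared. The 4496 genes with at least 10 gene body CpGs that lie in no other protein-coding gene held 144912 CpGs, with a median of 21 CpGs and 724 to 1194 reads per gene body and library. The median gene body was at 91.4%, 587 (13.1%) were under 80%, and 78 were under 50%. The 10 lowest, chosen by their level, were mostly short genes of developmental transcription factors: Sox4 at 3.82%, Dbx1 at 4.03%, Lhx5 at 8.39%, Barhl2 at 8.65%, Tlx1 at 8.80%, Irx4 at 9.72%, Barhl1 at 9.84%, Pdx1 at 10.04%, and Tbx2 at 12.1%, and with them Cacng8, a subunit of glutamate receptors, at 8.58%. None of these 10 differed by 5 points between hSTAT5BN642H and WT. A fall of 5 points was not possible for Sox4 and Dbx1, at a mean of 4.03% and 4.58% in WT. The shares over all gene bodies were 2.49% (lower) and 1.33% (higher), so that this count says nothing particular about these genes.

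The median difference over the 4496 gene bodies was −0.748 points between hSTAT5BN642H and WT, and 67.3% were lower. Between hSTAT5B and WT it was 0.129 points, and 45.8% were lower. hSTAT5BN642H was lower than WT by at least 5 points in 112 gene bodies (2.49%) and higher in 60 (1.33%), and hSTAT5B was lower in 30 (0.667%) and higher in 32 (0.712%). The 2 libraries of 1 genotype were as far apart in 259 gene bodies in WT, 209 in hSTAT5B, and 139 in hSTAT5BN642H. Both hSTAT5BN642H libraries were below the other 4 in 1070 gene bodies (23.8%) and above them in 211 (4.69%). This share changed with length, from 18.1% of 72 gene bodies under 10 kb to 46.7% of 531 of 300 kb or more, which have a median of 70 CpGs against 12. Of these 531 gene bodies, 0 differed by 5 points in either direction.

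In the test of log2 methylated over unmethylated reads, limma called 2 of 4496 gene bodies between hSTAT5BN642H and WT (0.0445%), Vav1 and Unc45a, and 1 between hSTAT5B and WT (0.0222%), Vav1. Between hSTAT5BN642H and hSTAT5B limma called 0 (0.0%), with a smallest adjusted p of 0.0737. At an unadjusted p under 0.05 the 3 comparisons held 539, 292, and 584 gene bodies, of which 413, 135, and 482 were lower. When limma was run on the mean level of the CpGs instead, it called 8 gene bodies between hSTAT5BN642H and WT and 8 between hSTAT5BN642H and hSTAT5B, with 0 between hSTAT5B and WT, and the 8 did not include Vav1 or Unc45a.

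Vav1, a guanine nucleotide exchange factor of antigen receptor signaling, had 12 gene body CpGs on chromosome 17. Their mean level hardly varied, at 90.3% and 89.9% in WT, 90.7% and 89.8% in hSTAT5B, and 90.6% and 90.7% in hSTAT5BN642H. Reads pooled over the CpGs, which limma compared, gave 88.9% and 87.9% in WT, 47.8% and 37.2% in hSTAT5B, and 44.8% and 44.3% in hSTAT5BN642H (log2 ratio −3.23 ± 0.25 SE, adjusted p = 0.0336 for hSTAT5BN642H, and −3.35 ± 0.25, adjusted p = 0.0339 for hSTAT5B, against WT). The call in hSTAT5BN642H was lost with at least 5 CpGs per gene body (limma adjusted p = 0.268) and with a replicate block (0.100). It was also lost in each of the 4 fits without a WT or hSTAT5BN642H library. These leave 1 library in a group, and the log2 ratio in them was −3.30 to −3.15. This gap in pooled level came with the intron CpG shown above, at position 57290640, which had 47 and 59 reads in WT but 607 and 716 in hSTAT5B and 920 and 690 in hSTAT5BN642H. It took 10% and 10.5% of the reads of the gene body in WT and 53.5% to 65.7% in the transgenic libraries. Of 177532 gene body CpGs, this was the 1 whose share of reads was at least 5-fold higher in all 4 transgenic libraries than in either WT library, and 0 were as much lower. Its fold, from the lowest transgenic to the highest WT library, was 11.0.

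The level of this CpG was low in all libraries. It was 2.13% and 1.69% in WT (95% Wilson intervals 0.377% to 11.1% and 0.3% to 9%), 3.62% and 5.17% in hSTAT5B (2.41% to 5.43% and 3.77% to 7.04%), and 7.17% and 6.52% in hSTAT5BN642H (5.68% to 9.03% and 4.91% to 8.62%). Intervals cover counting error only, since the reads carry no molecular identifiers. The other 11 CpGs of Vav1 were at 98.3% and 98.0% in WT, 98.7% and 97.5% in hSTAT5B, and 98.1% and 98.4% in hSTAT5BN642H, with 11 to 127 reads, and at 98.0% to 98.7% with their reads pooled. The transgenes carry regulatory sequence of Vav1, and reads of the gene and of transgene copies cannot be told apart in these files.

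Unc45a encodes a myosin chaperone. Its 14 CpGs, 9 of them in coding exons, were at 94.7% and 96.75% in WT, 96.8% in both hSTAT5B libraries, and 99.01% and 98.3% in hSTAT5BN642H. In hSTAT5BN642H the log2 ratio rose by 2.21 ± 0.18 (SE), with an adjusted p of 0.0336 by limma. The change in level was 2.89 points, and at 2 of the 14 CpGs it was at least 5 points. Pooled reads, 319 to 593 per library, gave 95.6% and 95.1% in WT and 98.99% and 99.2% in hSTAT5BN642H, so that the ratio rested on few unmethylated reads. With at least 5 CpGs per gene body and with a replicate block limma did not call Unc45a. The call was lost in each of the 4 fits without a WT or hSTAT5BN642H library (adjusted p 0.131 to 0.452).

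The gene bodies with the next smallest p were not called. They were picked by that p, which favors differences larger than those between replicates, so that such differences below are no separate evidence. Txndc5, which encodes a protein disulfide isomerase of the endoplasmic reticulum, was at 96.3% and 92.5% in WT, 93.8% and 93.7% in hSTAT5B, and 76.7% and 78.7% in hSTAT5BN642H (13 intron CpGs, adjusted p = 0.116 by limma). The 7 CpGs between positions 38503015 and 38503135 of chromosome 13 were all lower, at 98.7% and 98.2% in WT and at 68.6% and 72.7% in hSTAT5BN642H, and the other 6 differed by −3.66 points. With a mean-variance trend and robust moderation limma called this gene (adjusted p = 0.0282).

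Glipr2, a Golgi-associated membrane protein, was at 89.6% and 91.2% in WT, 84.0% and 88.2% in hSTAT5B, and 71.0% and 68.0% in hSTAT5BN642H. Here the difference was not confined to a stretch, since 11 of 12 CpGs in introns and coding exons were lower by at least 5 points. The share of all gene body CpGs lower by as much was not counted. Kbtbd11, a Kelch and BTB domain protein, was at 72.5% and 57.6% in WT, 47.1% and 54.4% in hSTAT5B, and 28.4% and 33.9% in hSTAT5BN642H. At the intron CpG of Kbtbd11 shown above, the level was 100% and 85% in WT, 70.0% and 90.0% in hSTAT5B, and 24.1% and 11.1% in hSTAT5BN642H, from 13 to 30 reads. At position 15014403 of chromosome 8 in the same intron the level was 75% and 43.8% in WT, 0% in both hSTAT5B libraries, and 4.76% and 4.17% in hSTAT5BN642H, from 10 to 24 reads, so that there all 4 transgenic libraries were below WT. The limma adjusted p was 0.153 for both genes.

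Otof encodes otoferlin, a calcium sensor of vesicle release in hair cells of the inner ear. Its 30 CpGs were at 93.9% and 96.8% in WT, 92.9% and 89.7% in hSTAT5B, and 82.8% and 84.2% in hSTAT5BN642H (adjusted p = 0.153 by limma). The difference was largest at 4 CpGs between positions 30380678 and 30380748 of chromosome 5, across the end of a coding exon, which were at 93.5% and 90.7% in WT, 81.4% and 63.2% in hSTAT5B, and 36.6% and 23.8% in hSTAT5BN642H. The other 26 CpGs differed by −4.15 points, among them the adjoining CpGs at positions 30380643 and 30380628, by −28.8 and −16.0 points. At the central CpG of the Otof window above the level was 85.7% and 91.7% in WT, 55.6% and 27.3% in hSTAT5B, and 12.5% and 8.33% in hSTAT5BN642H. With 11 to 18 reads there, the Wilson intervals were 60.1% to 96% and 64.6% to 98.5% in WT and 3.5% to 36% and 1.49% to 35.4% in hSTAT5BN642H.

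Other gene bodies of this rank differed less. Alcam, an adhesion molecule that binds CD6, was at 98.0% and 97.9% in WT, 94.1% and 95.7% in hSTAT5B, and 91.7% and 92.9% in hSTAT5BN642H, with a log2 ratio of −1.62 in hSTAT5B and −2.05 in hSTAT5BN642H against WT. Cul9, a cullin, was at 92.6% and 93.2% in WT, 90.9% and 91.3% in hSTAT5B, and 88.2% and 89.9% in hSTAT5BN642H. Eif2ak1, a heme-regulated kinase of translation initiation, was at 95.1% and 96.9% in WT, 96.98% and 98.5% in hSTAT5B, and 99.4% and 98.96% in hSTAT5BN642H. The adjusted p of these 3 in hSTAT5BN642H against WT was 0.139 to 0.153 by limma.

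The 8 gene bodies called on mean CpG level included Glipr2 and Txndc5, with adjusted p of 0.0186 and 0.0210 by limma. Rras2, a GTPase of the RAS family, was at 74.3% and 75.9% in WT, 68.9% and 70.5% in hSTAT5B, and 52.3% and 56.4% in hSTAT5BN642H. Plxdc1, a membrane receptor, was at 66.9% and 65.0% in WT, 60.2% and 60.3% in hSTAT5B, and 49.2% and 51.7% in hSTAT5BN642H. Ttyh3, a membrane protein of the tweety family, was at 89.8% and 83.8% in WT, 75.5% and 81.2% in hSTAT5B, and 57.4% and 62.2% in hSTAT5BN642H. Tpst2, which sulfates tyrosines, was at 71.8% and 70.9% in WT, 74.05% and 70.9% in hSTAT5B, and 56.7% and 52.5% in hSTAT5BN642H. Reep5, which shapes the endoplasmic reticulum, was at 96.7% and 96.3% in WT, 94.0% and 96.4% in hSTAT5B, and 85.5% and 83.4% in hSTAT5BN642H. Ppp2r1b, a scaffold subunit of protein phosphatase 2A, was the 1 of the 8 that was higher, at 70.7% and 66.2% in WT, 62.7% and 62.4% in hSTAT5B, and 91.6% and 86.1% in hSTAT5BN642H.

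**Figure D4:**
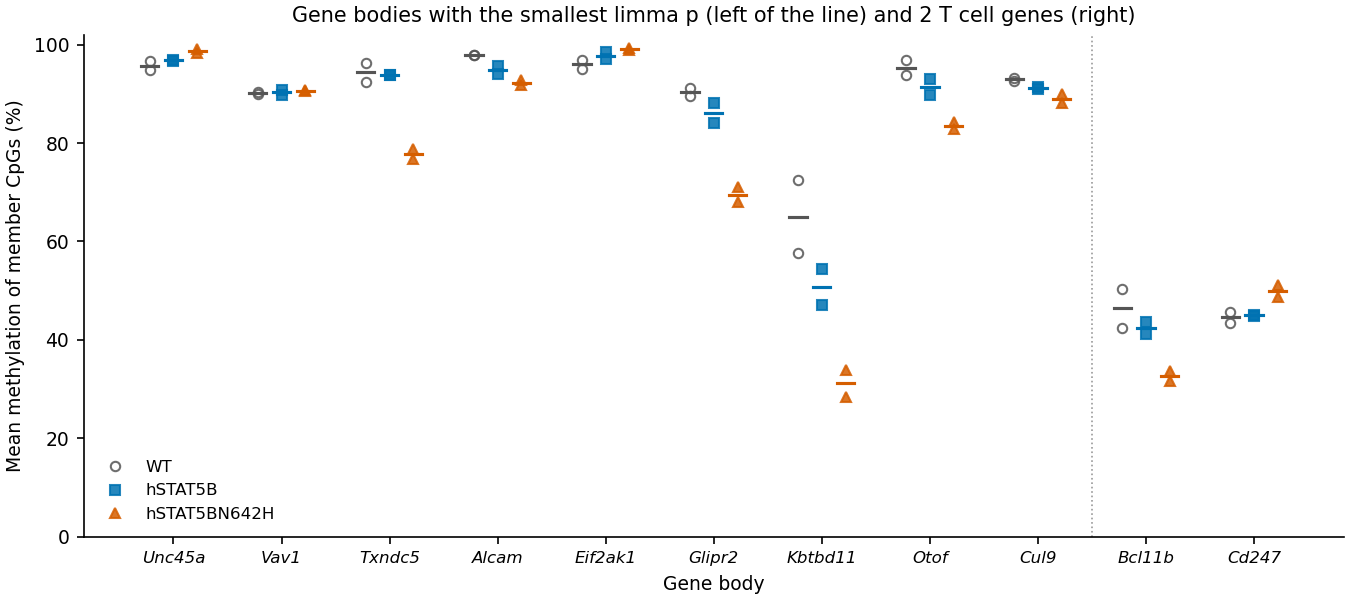
Mean methylation (%) of the CpGs of 11 gene bodies, with 1 point per library and a bar at the genotype mean (n = 2). Left of the dotted line are 9 of the 10 gene bodies with the smallest p in hSTAT5BN642H against WT, of which Kbtbd11 has the lowest triangles, at 28.4% and 33.9%, and right of it are Bcl11b and Cd247.

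Lists of genes were described by their levels, which are not a measure of expression. Of the 29 T cell markers, 10 had at least 10 gene body CpGs, with a median level of 84.0%, against 91.4% for all gene bodies tested. The lowest were Ets1, a transcription factor of lymphocytes, at 44.0% and 40.2% in WT, Bcl11b, which commits progenitors to the T lineage, at 50.4% and 42.4%, and Cd247, the zeta chain of the T cell receptor complex, at 43.4% and 45.8%. The T cell factors Lef1 and Runx3 were at 78.6% and 71.9% and at 80.9% and 79.5%, whereas Cd28 and Prkcq, of costimulation and receptor signaling, were near 90%, at 90.3% and 88.3% and at 92.9% and 90.8%. The 4 B cell genes tested had a median of 81.5%, with Pax5 at 77.3% and 79.0% in WT, and the 1 myeloid gene, Adgre1, was at 90.8% and 91.3%. Of the 2 CD4 lineage genes, Cd4 and Zbtb7b, neither had 10 gene body CpGs. Of the genes in these marker lists limma called 0 in either comparison with WT. The shares called over all gene bodies were 0.0445% in hSTAT5BN642H and 0.0222% in hSTAT5B, so that this count says nothing particular about the markers.

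The body of Bcl11b differed the most among the listed genes. Its 73 CpGs, 72 of them in introns, were at 50.4% and 42.4% in WT, 43.6% and 41.2% in hSTAT5B, and 31.6% and 33.7% in hSTAT5BN642H. Both hSTAT5BN642H libraries were below the other 4, with a difference of −13.8 points from WT, but limma did not call the gene (log2 ratio −0.91 ± 0.24 SE, adjusted p = 0.286). Of the 73 CpGs, 48 were lower by at least 5 points, 28 by at least 20, and 6 higher by at least 5 between hSTAT5BN642H and WT. Between hSTAT5B and WT 28 were lower and 14 higher by at least 5, and both hSTAT5BN642H libraries were below the other 4 at 27 CpGs. Such shares were not taken over all gene body CpGs, so that these counts have no background. The 4 CpGs between positions 107975192 and 107975237 of chromosome 12, which the Bcl11b window above holds, were at 82.6% and 69.0% in WT, 69.3% and 61.3% in hSTAT5B, and 34.5% and 25.3% in hSTAT5BN642H. The difference was not confined to these 4. Between 41.6 and 68.0 kb from the gene start hSTAT5BN642H lay on both sides of WT. As a mean, the other 69 CpGs differed by −11.9 points. Cd247 had the opposite sign, at 48.7% and 51.1% in hSTAT5BN642H, a difference of 5.30 points (limma adjusted p = 0.424).

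**Figure D5:**
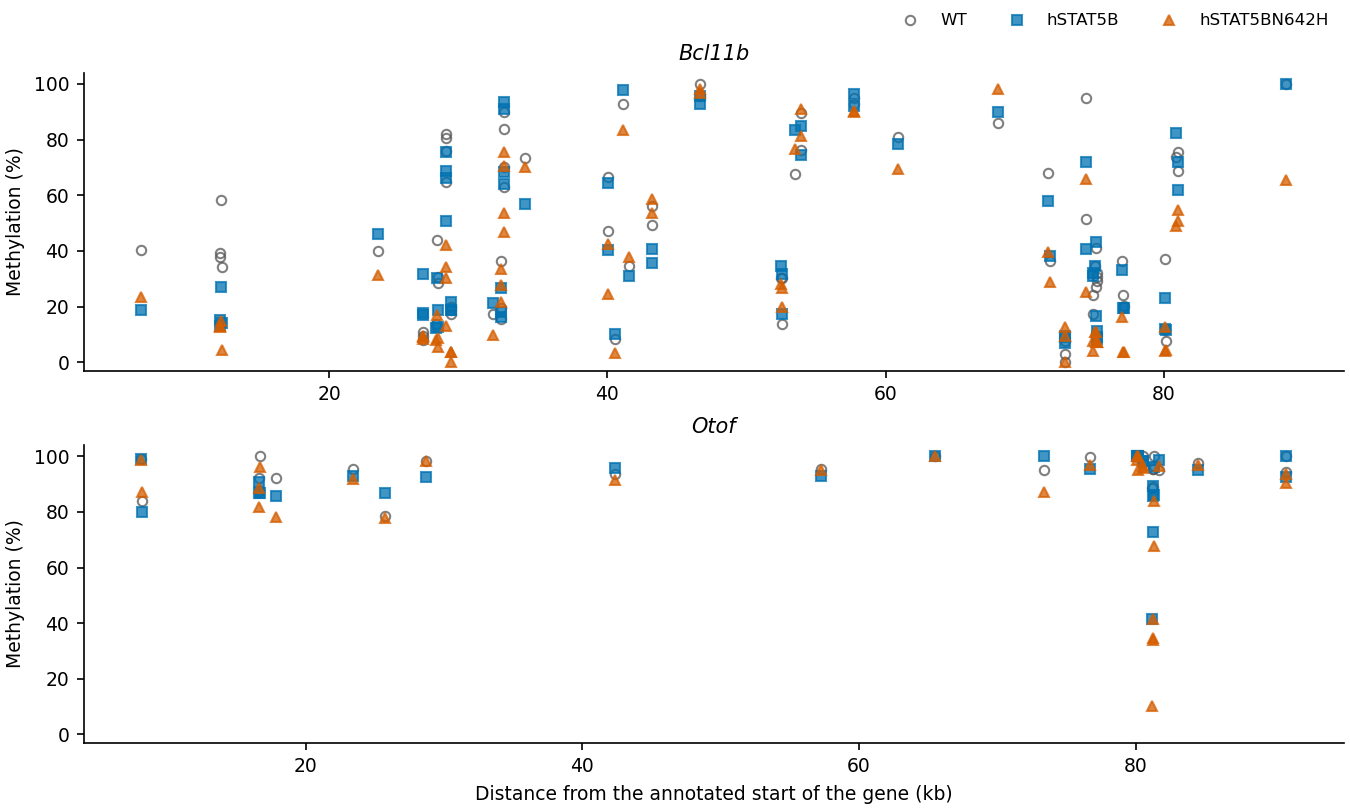
Methylation (%) of each gene body CpG of Bcl11b (73 CpGs, top) and Otof (30 CpGs, bottom) against the distance from the annotated start of the gene (kb), as the mean of the 2 libraries of each genotype. In Bcl11b triangles (hSTAT5BN642H) lie below circles (WT) at many CpGs, but on both sides of them between 41.6 and 68.0 kb. In Otof the triangles separate most at CpGs close together, between 81.184 and 81.304 kb. Elsewhere they lie nearer the circles, with differences from −14.0 to 3.15 points.

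In the STAT5 pathway list, 8 of 20 genes were tested, with a median level of 81.1% and a median difference between hSTAT5BN642H and WT of 1.35 points, against −0.748 points for all gene bodies. The median difference between hSTAT5B and WT was 1.80 points, against 0.129 points for all gene bodies. Among the receptors and kinases, Il2ra was at 88.8% and 87.5% in WT, 91.9% and 91.7% in hSTAT5B, and 89.8% and 92.4% in hSTAT5BN642H. Jak1 was at 58.9% and 52.3% in WT, 58.6% and 61.1% in hSTAT5B, and 52.9% and 55.7% in hSTAT5BN642H, and Jak3 at 92.4% and 93.3%, 90.9% and 92.7%, and 91.0% and 92.0%. Stat5b, the mouse gene of the transcription factor itself, was at 77.1% and 74.4% in WT, 77.0% and 76.9% in hSTAT5B, and 79.9% and 79.1% in hSTAT5BN642H. Of the targets, the survival gene Bcl2 was at 43.7% and 43.1% in WT and at 36.7% and 42.6% in hSTAT5BN642H, the feedback inhibitor Socs2 at 84.3% and 82.8% and at 83.9% and 85.5%, and the cell cycle gene Ccnd3 at 74.5% and 70.7% and at 75.5% and 76.1%. Of the 8 genes, 0 differed by 5 points between hSTAT5BN642H and WT and limma called 0, which is near the shares of 2.49% (lower), 1.33% (higher), and 0.0445% (called) over all gene bodies and says nothing particular about the list.

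The genes of the methylation machinery had highly methylated bodies themselves. The 11 of 24 tested had a median level of 92.7% and a median difference of −0.415 points, against −0.748 points for all gene bodies. Of the 11, 0 were past 5 points between hSTAT5BN642H and WT and limma called 0, near the shares over all gene bodies given for the STAT5 pathway list. Dnmt1 was at 97.6% and 96.9% in WT and at 96.0% and 96.3% in hSTAT5BN642H, Dnmt3b at 98.7% and 97.8% and at 97.1% and 97.7%, and Tet2, which oxidizes methylated cytosine, at 97.7% and 97.3% and at 95.8% and 95.5%. Dnmt3a, the de novo methyltransferase, had a mean CpG level of 82.4% and 82.6% in hSTAT5B, 87.7% and 88.9% in WT, and 87.9% and 88.8% in hSTAT5BN642H. With its reads pooled, as limma compared them, the libraries overlapped, at 87.0% and 88.8% in hSTAT5B, 88.2% and 90.3% in WT, and 88.8% and 88.0% in hSTAT5BN642H (adjusted p = 0.904 for hSTAT5B against WT).

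Neuronal genes are often long and served as a set of genes whose bodies hold many CpGs. Of 27 listed, 23 were tested, with a median level of 86.7% and a median difference of −0.964 points. In 11 of the 23 both hSTAT5BN642H libraries were below the other 4, and in 1 above. Of the 23, 13 were of 300 kb or more, and 10 of these 13 were among the 11, where the share over all gene bodies of that length was 46.7%. Cacna1a, a calcium channel, was at 87.4% and 87.5% in WT and at 84.4% and 85.4% in hSTAT5BN642H, and Csmd1 at 90.9% and 91.8% and at 89.6% and 89.4%. Camk2b, a calmodulin-dependent kinase, was the 1 gene past 5 points between hSTAT5BN642H and WT, and it was higher, at 77.8% and 76.2% in WT, 79.9% and 78.9% in hSTAT5B, and 84.5% and 82.8% in hSTAT5BN642H (limma adjusted p = 0.320). At 34 of its 85 CpGs hSTAT5BN642H was at least 5 points higher and at 10 at least 5 points lower, against 28 and 10 in hSTAT5B. How many of all gene body CpGs passed 5 points was not counted, so that these counts have no background. For 1 gene of 23, the shares over all gene bodies were 2.49% (lower) and 1.33% (higher), and the count says nothing particular about the list.

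The gene bodies with the most CpGs showed the small general difference and little else. The annotated gene Gm20388, a model of 4435 kb on chromosome 8 that spans other genes, had 1042 CpGs, at 71.5% and 73.1% in WT and at 71.4% and 72.2% in hSTAT5BN642H. The tumor suppressors at fragile sites, Wwox and Fhit, were at 89.7% and 90.3% in WT and 89.1% and 89.7% in hSTAT5BN642H, and at 92.5% and 93.1% and 91.4% and 91.9%. Prdm16, a transcriptional regulator in blood stem cells and brown fat, differed most, at 83.7% and 84.95% in WT, 84.1% and 83.6% in hSTAT5B, and 81.5% and 81.0% in hSTAT5BN642H. Cdh13 differed by −1.20 points, and Zfhx3, Camta1, Fgfr2, Csmd2, and Gm20388 by −0.842 to 0.0972 points. The limma adjusted p of these 9 was 0.633 to 0.922.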

How the data were processed

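RRBS was performed on CD8+ T cells of 6 mice, 2 of each genotype. Per the study's methods, reads were trimmed with Trimmomatic and aligned with BSMAP in RRBS mode to GRCm38 (mm10), and methylation was called with custom scripts, with versions not given in the sources used here. For each CpG, the deposited files give the counts of methylated and of all reads, and a score from 0 to 1000. Levels were computed from the counts, and the score served as a check of them. The conversion rate of each library was not measured here, and PCR copies cannot be told from separate molecules, so that intervals (Wilson, 95%) cover counting error only.

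Genes were taken from GENCODE M21 and sequence from the RefSeq GRCm38 assembly. CpG islands were found by the UCSC rule, with scores of 17 and −1 for CpG and other dinucleotides, a length over 200 bases, a GC content over 50%, and an observed to expected ratio over 0.6. A level is the unweighted mean over CpGs. Library values were compared by exact permutation tests. Reads of gene bodies with at least 10 CpGs, leaving out CpGs in more than 1 gene, were summed and compared as log2((methylated + 1)/(unmethylated + 1)) with limma 3.58.1 in R 4.3.3, with Benjamini-Hochberg adjustment over all gene bodies and a threshold of 0.05. With 1 mouse per library, the spread is that between mice. The limma steps were also run on simulated data, with 1 level per gene body and library. Those data held no imbalance of reads between CpGs such as that in Vav1. All other steps ran in Python 3.11.15 with scipy 1.17.1, pandas 2.3.3, and numpy 2.4.6, and plots were drawn with matplotlib 3.10.9.

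Named genes were the limma calls, the 10 gene bodies with the smallest p in hSTAT5BN642H against WT, the 10 with the most CpGs, and the tested genes of the lists (T cell, B cell, myeloid, and CD4 markers, STAT5 pathway, methylation machinery, and neuronal genes), of which 3 are not reported here. Members and lists were chosen with earlier results of these data known. The lowest gene bodies, the genes called on mean level, and the stretches within genes were chosen after their values were seen. Alternatives were other read limits, TSS distances, weightings, gene filters, and limma settings, repeats left out, matched CpG spacing, a replicate block, and leaving out each library.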

Additional observations from a re-analysis of the deposited data

How the results depend on the processing

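The genotype differences of the gene body, coding exon, and intron means kept their sign in hSTAT5BN642H against WT under the alternatives run, whereas those of hSTAT5B against WT did not. Without WT replicate 1, hSTAT5B minus WT was −0.0974, −0.176, and −0.0807 points for these classes, and leaving out each library in turn gave −0.0974 to 0.374, −0.176 to 0.318, and −0.0807 to 0.368 points. The coding exon minus intron gap in hSTAT5B against WT, −0.0727 points, was 0.00461 with repeats left out and 0.0424 within genes that had both compartments. At the same CpG spacing this gap differed by −0.154 points between hSTAT5BN642H and WT and by −0.0469 between hSTAT5BN642H and the other 4. Leaving out each library in turn gave gaps of 2.65 to 2.72 points (coding exon minus intron), 0.690 to 0.751 (gene body minus intergenic), and 3.90 to 3.97 (long minus short genes), with p = 0.0625, the smallest an exact sign-flip permutation test of 5 libraries can give.

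The limma calls, 2, 1, and 0 in hSTAT5BN642H against WT, hSTAT5B against WT, and hSTAT5BN642H against hSTAT5B, were 0 and 0 in the first pair with at least 20 or at least 5 CpGs per gene body, 1 in the first with at least 5 reads, 8, 0, and 8 on mean CpG level, 1 in the last with an offset of 0.5 reads, and 1 and 0 in the first pair with only the genotypes compared. Leaving out each library in turn gave 0 to 0, 0 to 1, and 0 to 0 calls. The replicate block gave 0 and 0 calls against WT. Libraries with the same replicate number did not deviate together over gene bodies (r = 0.0278, −0.0281, and 0.0430). Whether they shared preparation or sequencing was not tested. With the block the p of the gene body mean, hSTAT5BN642H against WT, was 0.5 by an exact sign-flip permutation test. This is the smallest p that 2 pairs of libraries can give. The log2 ratio change changed sign for Csmd2 (−0.0488 without WT replicate 1, range −0.0488 to 0.223) and Cdh13 (0.0441 without WT replicate 2, range −0.167 to 0.0441). The strata of spacing and flanks in the length comparison and the contrast of genes of 300 kb or more were chosen after seeing the data. CpGs with under 10 reads in any library were not analysed, which limits what these counts can resolve in single CpGs.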

Other observations

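Coding exons and introns also differed in the spread of their CpGs over levels. In coding exons 66.5% and 68.6% of CpGs were at 95% or above in WT, 67.8% and 68.3% in hSTAT5B, and 63.2% and 64.3% in hSTAT5BN642H. In introns the shares were 57.01% and 59.5% in WT, 59.0% and 59.5% in hSTAT5B, and 52.3% and 53.8% in hSTAT5BN642H. In genes under 10 kb the gap between coding exons and introns was wider than in genes of 300 kb or more, at 6.14 to 7.57 against 2.25 to 2.96 points over the 6 libraries.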
